A study of Mus musculus with 8 samples.

Results

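Growth factor receptors such as EGFR pass their signal through RAS, RAF and MEK to the kinase ERK, and ERK in turn switches on genes whose products slow the same cascade. DUSP4 and DUSP6 are phosphatases that remove the activating phosphates from ERK and related kinases, Sprouty proteins act between the receptors and RAS, and the Etv factors of the ETS family are transcription factors made in response to the signal. In the intestine, EGF-family ligands sustain the dividing cells at the base of the crypts, where the stem cells carry Lgr5, and Ascl2 is a transcription factor of those stem cells.

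The ERK feedback genes described here are Dusp4, Dusp5, Dusp6, Spry1, Spry2, Spry4, Etv4, Etv5, the receptor gene Egfr and Phlda1, 10 genes among 27573 gene names on the array. They were found by the gene name, or an older alias, printed in the scanner files. In all, 18 of 41174 probes carried 9 of the 10 names, and Dusp5 was not analysed here because no probe carried its name or alias. The list was chosen by name with ratios of these arrays, in both comparisons, already known, so the members' ratios are a description. Counts of members past a test are given beside the share of all genes, and nothing is read from them.

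Ascl2-deleted and control RNA came from small intestinal epithelium. The deleted mice were Ah-Cre animals with both copies of Ascl2 floxed, and the controls were Ah-Cre animals with 1 floxed and 1 wild-type copy, so both carried the inducible Cre and at least 1 floxed allele. RNA was taken 3 and 5 days after induction, with 1 RNA pair per day, and the sources used here do not give the number of animals behind each pair. GFPhi and GFPlo cells were sorted from intestines of Lgr5-EGFP-ires-CreERT2 mice, in which green fluorescent protein reports Lgr5, in 2 sorts that each pooled 3 mice. GFPlo cells are thus not cells without Lgr5, and neither sorted population carried the Ascl2 deletion. Ages are not given in the sources used here. A dye swap put every one of the 4 RNA pairs on 2 arrays, 8 arrays in all, which count as 1 replicate, so every mean ± SD below has n = 2 RNA pairs.

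The arrays matched their labels for both genes that define the groups. The log2 ratio of Ascl2, deleted over control, was -1.36 and -1.30 on day 3, with -1.34 and -1.73 on day 5. The log2 ratio of Lgr5, GFPhi over GFPlo, was 2.00 and 2.21 in sort 1, then 2.48 and 2.65 in sort 2. The share of spots well above background in a channel was 55% to 66.9% for the deletion and 35.5% to 44.6% for the sorts. In the joint limma fit, no gene passed an adjusted p of 0.05 in either comparison (0% of 10419 in the sorts and 0% of 15851 in the deletion), while 1061 (10.2%) and 1487 (9.38%) had an unadjusted p under that value, 1 of the members described here in each. Fitted alone, the sorts gave 1343 genes (12.9%) and the deletion 0, and all 8 arrays fitted with the RNA pair as a random block gave 233 and 337.

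Of the 10 genes, 7 were measured well enough to enter the fit in each comparison. Spry4 was not well above background on any array with either of its probes. Etv5 reached that mark on 1 of 4 deleted and 1 of 4 control channels with its brighter probe, on 2 of 4 control channels with the other, and on none of the sort arrays. Neither gene therefore has a ratio here. None of the 7 passed the joint test in either comparison, as for all genes. Among the 7, 1 was higher and 1 lower on all 4 sort arrays, against 17.3% and 16.4% of all tested genes, and 1 was higher and 2 lower on all 4 deletion arrays, against 13% and 12.9%. At 1.5-fold or more on all 4 arrays, 1 member was higher in GFPhi cells (0.566% of all genes) and 0 were lower (1.11%), while 1 was lower after deletion (0.385%) and 0 were higher (0.486%). The median log2 ratio of the 7 was 0.01 in the sorts and -0.03 in the deletion, beside medians of 0.01 and 0.00 over all tested genes. The members did not move together: each comparison held 1 large ratio, Phlda1 in the sorts and Dusp4 in the deletion, and mostly small ones elsewhere.

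**Figure D1:**
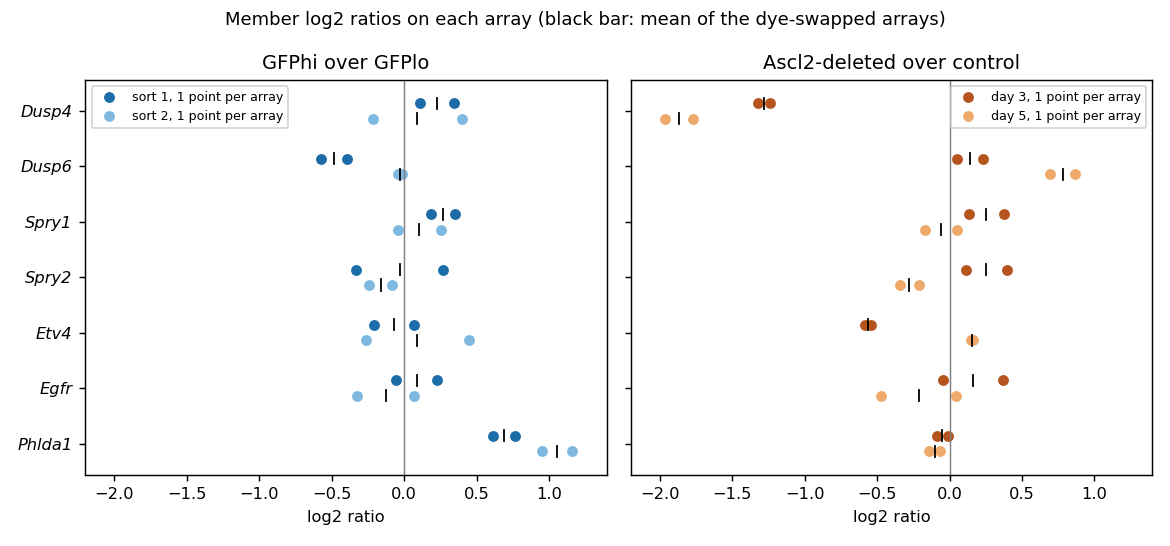
Log2 ratio of the brightest probe of the 7 measured members on each array, GFPhi over GFPlo on the left and Ascl2-deleted over control on the right. Points are arrays and black bars are means of the dye-swapped arrays of 1 RNA pair; Dusp4 lies below -1.2 on all 4 deletion arrays and Phlda1 above 0.6 on all 4 sort arrays.

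Dusp4 was lower in Ascl2-deleted epithelium on both days. Its brightest probe, at chr8:36290269-36290328 of mouse build mm8 on the plus strand, had scanner signals of 227 and 275 in deleted RNA, against 740 and 775 in control RNA, on day 3. On day 5 the signals were 154 and 188 in deleted RNA and 791 and 795 in control RNA. The deleted and control channels did not overlap on either day. With 2 channels of 1 RNA pair on each side, such a gap says little. Its share over all genes was not counted, so nothing is read from it here or for the members below. It is not pointed out in every case. The log2 ratios were -1.24 and -1.32 on day 3, with -1.77 and -1.96 on day 5, a 2.43-fold and a 3.65-fold lower level. Their mean was -1.57 ± 0.42 (SD, n = 2). The standard error of 0.17 in the joint fit also draws on the smaller spread between the sorts (SD 0.10). The limma adjusted p was 0.306 in the joint fit and 0.978 with the deletion fitted alone.

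The Dusp4 probe just described is annotated to a cDNA clone that the file names Dusp4. The other lies 2761 bases nearer the start, at chr8:36287508-36287567, and is annotated to the RefSeq mRNA. Its log2 ratios were -0.57 and -0.49 on day 3, with -0.75 and -0.69 on day 5. It was dim, well above background on 2 of 4 deleted channels (1 per day) and 4 of 4 control channels, so it was kept only through the control channels and its direction adds no support to the brighter probe. Its ratio also moved with the background treatment: with the scanner's own background-subtracted signals its mean was -1.60, beside -1.91 for the brighter probe. The mean over both probes was -1.10.

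In the sorts, with the processing used here, Dusp4 had small ratios whose sign differed between arrays. The pair means of its brightest probe were 0.23 in sort 1 and 0.09 in sort 2, and each array of sort 2 lay 0.31 from its pair mean. The other probe had pair means of 0.29 and -0.03. Signals of the brightest probe were 256 and 276 in GFPhi cells and 170 and 195 in GFPlo cells of sort 1, without overlap. In sort 2 they were 724 and 780 in GFPhi cells and 593 and 846 in GFPlo cells. Its log2 ratios were 0.11 and 0.34 in sort 1, then -0.22 and 0.40 in sort 2, where the GFPhi signals lay within the range of the GFPlo signals. With the scanner's signals the ratios were larger in sort 1, at 0.40 and 0.70, and were -0.12 and 0.29 in sort 2. Dusp4 was thus lower on all 4 deletion arrays and of mixed sign over the single sort arrays. Ascl2 itself was 1.49-fold higher in GFPhi cells (log2 ratios between 0.27 and 0.96).

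Dusp6, whose product acts mainly on ERK, was higher in deleted epithelium on day 5. Its log2 ratios, deleted over control, were 0.23 and 0.05 on day 3, with 0.70 and 0.87 on day 5. On day 5 the scanner signals were 16700 and 20500 in deleted RNA, against 10100 and 11400 in control RNA, a 1.72-fold difference with no overlap. On day 3 they were 30800 and 34100 in deleted RNA and 28800 and 30200 in control RNA, 1.10-fold apart and also without overlap. The mean over both days was 0.46 ± 0.45 (SD, n = 2), so the SD was about as large as the mean.

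In the sorts Dusp6 was lower in GFPhi cells of sort 1 and close to equal in sort 2. The log2 ratios were -0.57 and -0.39 in sort 1, then -0.02 and -0.04 in sort 2. Signals in sort 1 were 623 and 638 in GFPhi cells and 941 and 1080 in GFPlo cells. In sort 2 they were 1100 and 1340 in GFPhi cells and 1190 and 1310 in GFPlo cells, and overlapped. The 4 arrays had the same sign, but the mean of -0.26 ± 0.32 (SD, n = 2) rested on sort 1: it was -0.48 in that sort and -0.03 in sort 2. With the scanner's signals the sort 2 ratios were 0.03 and -0.11, so the sign was then mixed.

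Dusp4 and Dusp6 therefore lay on opposite sides of 0 in the deletion. On day 5 the pair differed most, at -1.87 for Dusp4 and 0.78 for Dusp6, and no other member had a day mean of 1.5-fold or more by its brightest probe, with Etv4 at 1.48-fold on day 3 and past that size with the scanner's signals. Over all tested genes, 2.37% were lower and 3.62% higher by at least 1.5-fold on both day 5 arrays, and 7.47% lower and 5.75% higher on both day 3 arrays.

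Spry1 and Spry2, inhibitors of receptor tyrosine kinase signalling, had small ratios with the processing used here. Those of Spry2 had opposite signs on the 2 days after deletion. Spry2 had log2 ratios, deleted over control, of 0.11 and 0.39 on day 3 and of -0.21 and -0.34 on day 5. Its day 3 signals were 2370 and 2550 in deleted RNA and 1890 and 2030 in control RNA. Its day 5 signals were 595 and 604 in deleted RNA and 735 and 785 in control RNA. The channels did not overlap on either day, and the direction was opposite, so that the mean of both days was -0.01 ± 0.38 (SD, n = 2). The other Spry2 probe, which is dimmer, gave 0.03 and 0.05 on day 3 and -0.09 and -0.28 on day 5, with the same signs and smaller sizes.

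Spry1 had log2 ratios, deleted over control, of 0.13 and 0.37 on day 3 and of 0.05 and -0.17 on day 5. In the sorts its ratios were 0.19 and 0.35 in sort 1, then 0.25 and -0.04 in sort 2, a mean of 0.19 ± 0.12 (SD, n = 2). Spry2 in the sorts gave -0.33 and 0.27 in sort 1, then -0.09 and -0.24 in sort 2. The gap between the dye-swapped arrays of sort 1 was larger for Spry2 than any difference between the sorts. Neither Sprouty gene had 1 sign on all 4 sort arrays with the processing used here. With the scanner's signals Spry1 had 0.60 and 0.71 in sort 1, then 0.17 and 0.07 in sort 2, all higher in GFPhi cells.

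Upstream sequence is shown for Dusp6 and Spry2, the members with a RefSeq promoter entry and the largest shift of the brightest probe between the days. Each line gives the 250 bases before the gene's start in RefSeq's table on GRCm38.p6, 5′ to 3′ on the gene's strand, at chr10:99262981-99263230 (plus strand) for Dusp6 and chr14:105896820-105897069 (minus strand) for Spry2. Capitals mark GGAA, the core that ETS factors such as Etv4 recognise, or its reverse complement, and CANNTG, the E-box bound by basic helix-loop-helix factors such as Ascl2, both searched on both strands.
Dusp6: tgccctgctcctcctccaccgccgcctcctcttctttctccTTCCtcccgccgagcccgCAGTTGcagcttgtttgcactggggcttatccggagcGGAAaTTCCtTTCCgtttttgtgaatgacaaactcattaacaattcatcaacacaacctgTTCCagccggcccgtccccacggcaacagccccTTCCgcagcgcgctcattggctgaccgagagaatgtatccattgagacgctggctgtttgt
Spry2: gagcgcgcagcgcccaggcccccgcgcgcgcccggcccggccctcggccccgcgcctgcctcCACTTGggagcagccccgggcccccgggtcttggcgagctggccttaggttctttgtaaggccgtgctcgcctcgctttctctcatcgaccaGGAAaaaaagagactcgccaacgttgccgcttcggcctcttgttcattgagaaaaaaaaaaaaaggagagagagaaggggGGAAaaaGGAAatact
Dusp6 held 6 GGAA matches and 1 CANNTG match, and Spry2 held 3 and 1. Among 32851 promoters of the same length, 93.4% held GGAA, with a median of 3 matches, and 66.2% held CANNTG, with a median of 1. The longer forms CCGGAA (12% of promoters) and CAGCTG (13% of promoters), which contain the shorter motifs, matched neither sequence. Of the other 4 members with an entry, Egfr held 1 CCGGAA match, 1 of the 2 listed starts of Etv5 held 1 CAGCTG match, and Spry1 and Dusp5 held none. These matches describe the letters and show no binding.

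Etv4, an ETS transcription factor, was lower in deleted epithelium on day 3 alone. Its log2 ratios, deleted over control, were -0.54 and -0.59 on day 3, with 0.16 and 0.14 on day 5. Signals on day 3 were 58.5 and 63 in deleted RNA, against 135 and 141 in control RNA, without overlap. On day 5 they were 54.8 and 58.5 in deleted RNA and 49.1 and 49.7 in control RNA, also without overlap. In the sorts the dye-swapped arrays disagreed in sign, at 0.07 and -0.21 in sort 1, then 0.45 and -0.27 in sort 2. Etv4 was dim throughout, so the offset of 50 added to each signal draws its ratios towards 0: with the scanner's signals the day 3 ratios were -1.27 and -1.10.

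Egfr was read by 6 probes, and 2 of these, annotated as transcript variants 1 and 2, were each spotted 10 times per array. The variant 1 probe gave a log2 ratio, deleted over control, of -0.04 ± 0.09 and 0.37 ± 0.03 on day 3 and of 0.04 ± 0.03 and -0.47 ± 0.06 on day 5 (SD over the 10 spots of each array, a technical spread). Spots of 1 array thus lay close together, while the dye-swapped arrays of the same RNAs did not. In all 4 RNA pairs the ratio was higher on the array where the deleted or GFPhi RNA carried Cy5, with a dye part, taken as the distance of either array from the mean of the pair, of 0.21 on day 3, 0.26 on day 5, 0.14 in sort 1, then 0.20 in sort 2. The median size of this dye part over probes above background lay between 0.07 and 0.10 in the 4 pairs. The dye part cancels in the mean of a pair, which for this probe was 0.16 on day 3 and -0.21 on day 5.

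**Figure D2:**
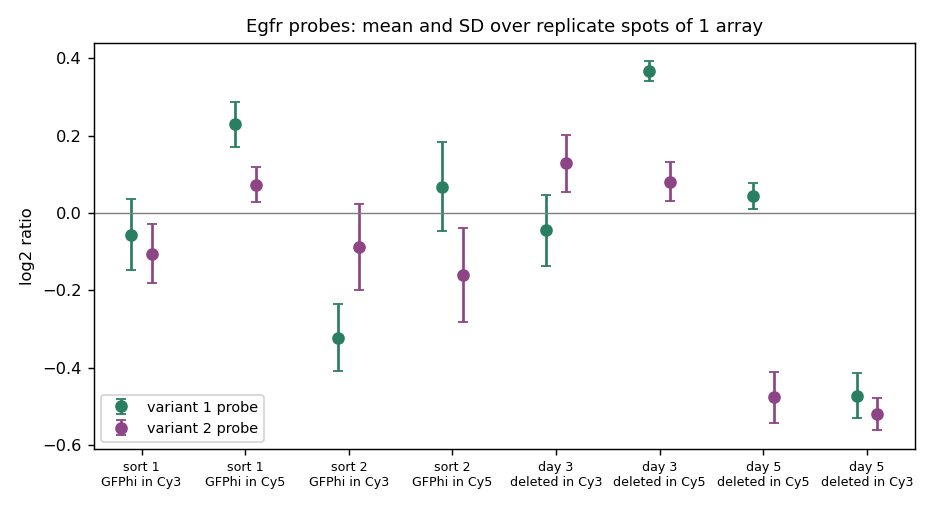
Log2 ratio of the Egfr variant 1 and variant 2 probes on each of the 8 arrays, GFPhi over GFPlo or Ascl2-deleted over control, as the mean and SD of the replicate spots (10, or 9 for the variant 2 probe on 1 day 5 array). The label names the dye of the GFPhi or deleted RNA; the variant 1 probe is higher in each pair where that dye is Cy5, and the variant 2 probe lies near -0.5 on both day 5 arrays.

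The variant 2 probe showed no such dye part in the deletion. Its day 3 ratios were 0.13 ± 0.07 and 0.08 ± 0.05, and its day 5 ratios -0.48 ± 0.06 and -0.52 ± 0.04 (SD over 9 or 10 spots). Another probe annotated to variant 2 gave 0.08 and 0.19 on day 3 and -0.33 and -0.42 on day 5. Both probes with this annotation were therefore lower on day 5, by 1.41-fold with the first, and slightly higher on day 3. Whether they read that variant alone was not tested. The second variant 1 probe had signs that differed within each day and day means of 0.05 and 0.01. Of the 2 remaining probes, annotated to cDNA clones, 1 gave day means of 0.00 and -0.23 and the other was not well above background. In the sorts the pair means of the 3 brightest Egfr probes lay between -0.13 and 0.09.

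Phlda1, which encodes a pleckstrin homology-like protein induced by growth factors, was higher in GFPhi cells in both sorts. Its scanner signals were 8770 and 9020 in GFPhi cells, against 5200 and 5530 in GFPlo cells, in sort 1. In sort 2 they were 8590 and 8660 in GFPhi cells, against 3630 and 4270 in GFPlo cells. GFPhi and GFPlo signals did not overlap in either sort. The log2 ratios were 0.61 and 0.76 in sort 1, then 0.96 and 1.16 in sort 2, with a mean of 0.87 ± 0.26 (SD, n = 2), or 1.83-fold. The standard error of 0.13 in the joint fit also draws on the spread between the deletion days. In the sorts fitted alone, 1 member of 7 (Phlda1) was past the test, which 6.55% of all genes passed in that direction and 6.34% in the other.

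In the deletion Phlda1 stayed close to 0. Its log2 ratios, deleted over control, were -0.09 and -0.01 on day 3, with -0.14 and -0.06 on day 5, a mean of -0.08 ± 0.04 (SD, n = 2). Day 3 signals were 2350 and 2410 in deleted RNA and 2390 and 2410 in control RNA. Dusp4 and Phlda1 thus each had large ratios in 1 comparison and small ones in the other, and not in the same one.

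**Figure D3:**
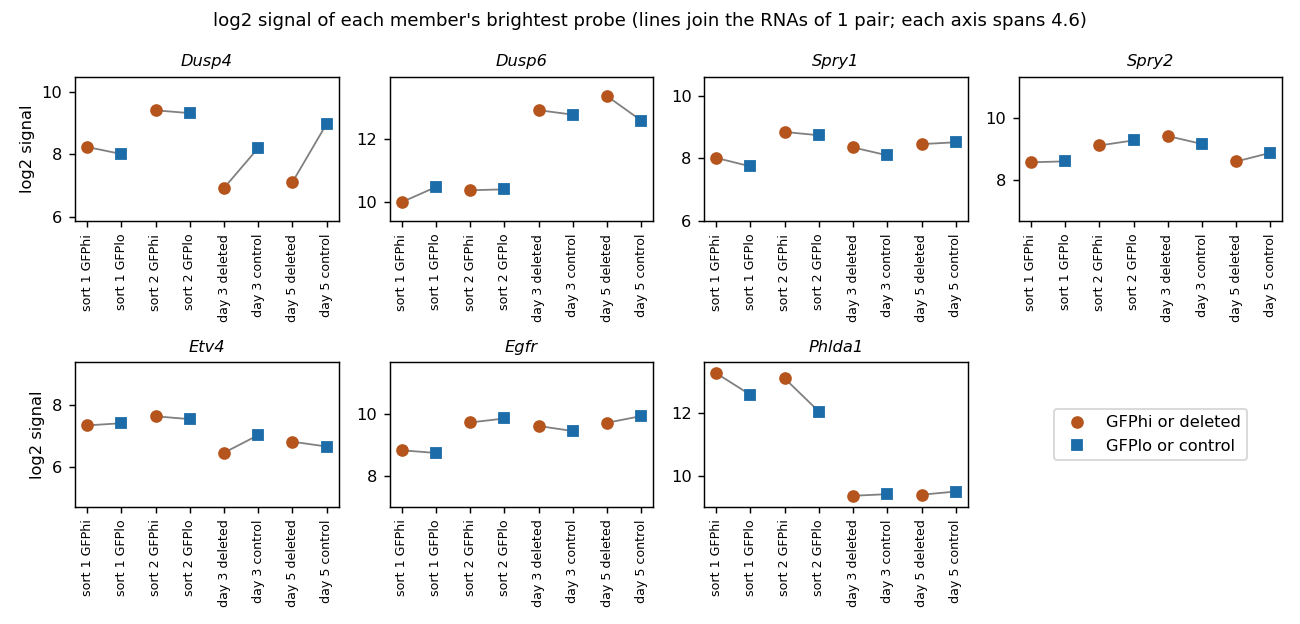
Log2 signal of the brightest probe of each measured member in the 8 RNAs, with GFPhi or deleted RNA left of its GFPlo or control RNA. Signals were normalized within arrays, average signals were then matched by quantiles across all arrays, and the dye-swapped arrays were averaged. Lines join the RNAs of 1 pair, the only ones compared here. Dusp4 lies below its control on both days, and Phlda1 lies above GFPlo in both sorts.

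The difference between the days is shown for the members by the day means. Day 5 minus day 3 was -0.59 for Dusp4, 0.64 for Dusp6, -0.31 for Spry1, -0.53 for Spry2, 0.72 for Etv4, -0.38 for the brightest Egfr probe and -0.05 for Phlda1. Spry2 and Etv4, 2 of the 7, had 1 sign on both day 3 arrays and the other on both day 5 arrays, as did 28.5% of all genes. In a limma fit with a coefficient per day, 3 of the 7 (Dusp4, Spry2 and Etv4) passed an adjusted p of 0.05, beside 30.3% of all 15849 genes tested. By that fit or by opposite signs, the same 3 differed, beside 42% of all genes. That fit takes its spread from the sorts, since each day has 1 RNA pair. Of the 15851 genes tested in the deletion, 10272 were also tested in the sorts. For the rest the spread came from sort values that did not meet the signal filter. The count was 1898 with the deposited series matrix values and 0 with the scanner's processed signals. Day, animals, slide and scan differ together between the pairs and cannot be told apart.

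**Figure D4:**
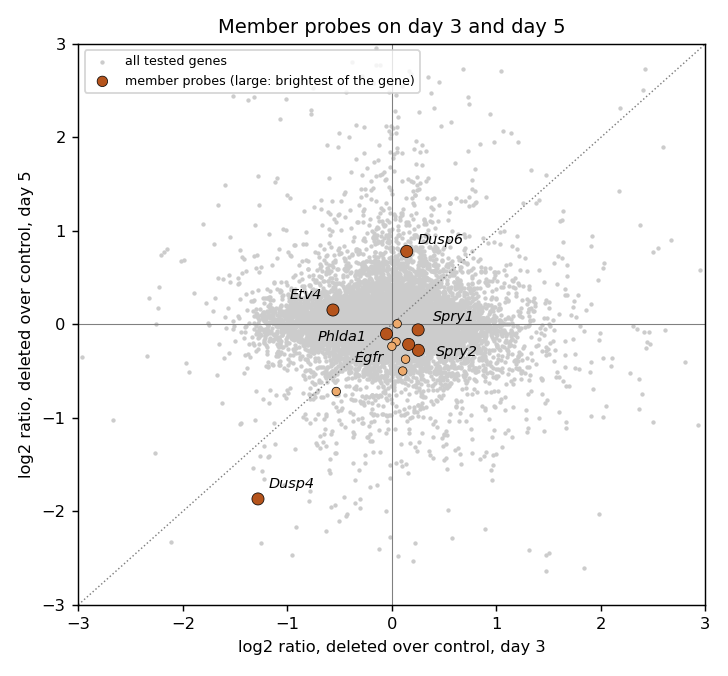
Day 5 against day 3 log2 ratio, Ascl2-deleted over control, for all tested genes in grey and for the member probes in colour, with the brightest probe of each gene drawn large. The dotted line marks equal ratios, and 57 of 15851 genes lie outside the axes; Dusp4 is low on both days, Dusp6 is high on day 5, and Etv4 and Spry2 lie on opposite sides of 0 on the 2 days.

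Markers of other cell states also had ratios away from 0, though none passed the joint test. Cell cycle markers had a median log2 ratio, deleted over control, of -1.19 on day 3 and 0.00 on day 5, all 10 being lower on average and 4 of them lower on all 4 arrays. Stromal markers, of which 6 of 10 were measured, had medians of -0.32 on day 3 and 3.23 on day 5, where Col1a1 and Col3a1, fibrillar collagens of fibroblasts, stood at 5.15 and 5.28 on day 5, and at -0.93 and -1.07 on day 3. Col1a2 had the same pattern, while Pdgfrb stood at 1.09 on day 3 and -0.17 on day 5, and Acta2 at 0.11 and 0.18. Of the 10 stem cell markers, a list that holds Ascl2 itself, 9 were lower on all 4 deletion arrays and Axin2 was of mixed sign (0.06 on day 3 and -0.14 on day 5). The list medians were -1.08 for day 3 and -0.43 for day 5. Paneth markers, all 7 measured being lower on average, had medians of -1.25 and -0.04, goblet markers of 0.94 and 0.03, tuft markers of 0.90 and -0.50, and enterocyte markers of 0.58 and -0.43, day 3 before day 5. In the sorts, all 7 measured goblet markers (median -1.67) and all 7 measured enteroendocrine markers (median -2.0) were lower in GFPhi cells on all 4 arrays, as were all 3 measured tuft markers (median -1.14) and 6 of 7 enterocyte markers (median -0.59). All 10 stem cell markers, Lgr5 among them, were higher in GFPhi cells on average (median 0.92), 9 of them on all 4 arrays. All 7 measured Paneth markers were lower on average (median -0.25), 3 of them on all 4 arrays. Of the cell cycle markers 6 were higher and 4 lower (median 0.12). Over all tested genes, 17.3% were higher and 16.4% lower on all 4 sort arrays. The part of these cell states in the members' ratios was not tested. In these mixed tissues and pools, fewer cells of a type and less RNA per cell cannot be told apart.

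The other genes of the pathway, listed by role, also gave no call in the joint test. A further 27 genes were listed as brakes, some of them phosphatases of related kinases rather than mainly of ERK. Of these, 13 were measured in the sorts, 10 higher and 3 lower on average in GFPhi cells, with a median log2 ratio of 0.15. Il17rd, a membrane inhibitor of FGF signalling, had ratios of 0.65 and 1.02 in sort 1, then 1.04 and 1.22 in sort 2, a mean of 0.98 ± 0.21 (SD, n = 2; limma adjusted p = 0.374 in the joint fit and 0.00126 fitted alone). Lrig1, an inhibitor of EGFR-family receptors that also marks crypt cells, averaged 0.76 ± 0.23 (SD, n = 2; limma adjusted p = 0.392 in the joint fit and 0.00386 fitted alone). These were the 2 of 13 brakes past the test of the sorts fitted alone, both higher, beside 6.55% of all genes in that direction. On all 4 sort arrays 6 of the 13 were higher, beside 17.3% of all genes.

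In the deletion, 23 further brakes were measured, 17 higher and 6 lower on average, the day 3 median being 0.26 and the day 5 median 0.12. Dusp1, a nuclear phosphatase made as an immediate early gene, had log2 ratios, deleted over control, of 1.0 and 1.63 on day 3 and of 0.38 and -0.06 on day 5. Errfi1, a cytoplasmic inhibitor of EGFR, had 1.08 and 0.86 on day 3 and -0.43 and -0.28 on day 5. Il17rd had day means of 0.62 and -0.27, and Lrig1 of -0.81 and -0.11. Dusp10 was 0.24 ± 0.06 (SD, n = 2), Spred1 -0.09 ± 0.31 and Spred2 0.13 ± 0.19.

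A further 24 genes were listed as induced through ERK, though whether ERK induces each of them in these cells was not tested. Of these, 21 were measured in the deletion, 15 higher and 6 lower on average, with a median of 0.51 on day 3 and 0.14 on day 5. Egr1, an immediate early transcription factor, had ratios of 0.45 and 1.02 on day 3 and of 0.25 and 0.01 on day 5. Ier3, also an immediate early gene, averaged 0.36 ± 0.17 (SD, n = 2). Myc and Ccnd1, which drive the cell cycle, were lower on day 3, at -1.32 each, and on day 5 stood at 0.02 for Myc and 0.73 for Ccnd1. In the sorts 16 of the 24 were measured, 8 higher and 8 lower with a median of -0.03. In the sorts fitted alone 4 of the 16 passed the test as higher, beside 6.55% of all genes, of which Ets2, an ETS factor, had 0.77 ± 0.04 (SD, n = 2; limma adjusted p = 0.27 in the joint fit and 0.0017 fitted alone) and Myc 0.32 ± 0.03 (limma adjusted p = 0.869 and 0.046), and 2 passed as lower, beside 6.34%. The other two higher genes were Trib1 and Phlda3 and the lower ones Cdkn1a and Phlda2, all 4 named after their values were seen.

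**Figure D5:**
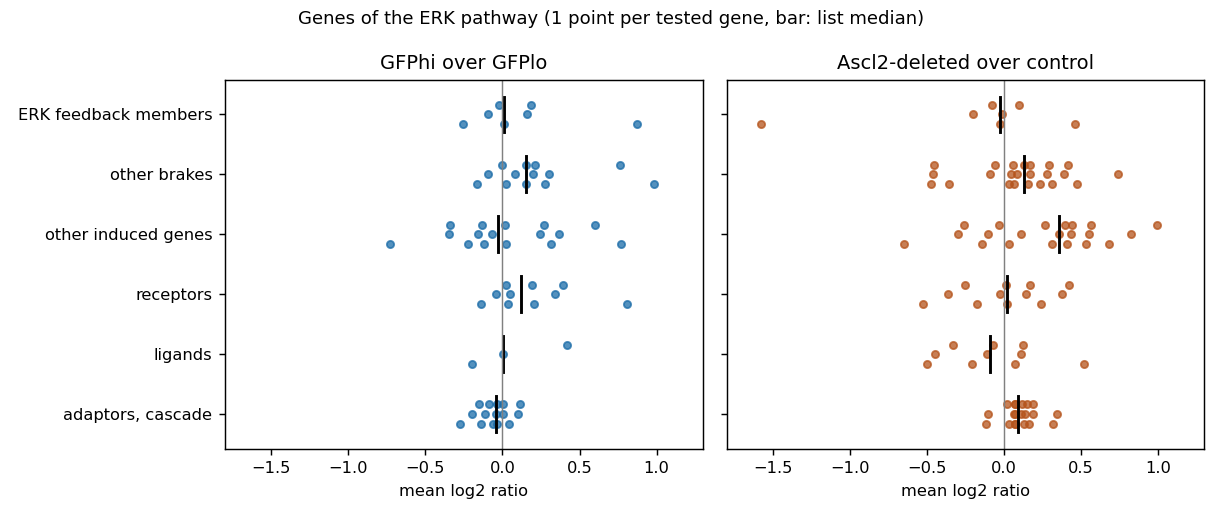
Mean log2 ratio of each measured gene of the ERK pathway, by list, GFPhi over GFPlo on the left and Ascl2-deleted over control on the right. Bars are list medians; medians lie between -0.04 and 0.15 in the sorts and between -0.09 and 0.36 in the deletion, and the Dusp4 ratio of -1.57 is the lowest point of the deletion panel.

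Of 12 further receptors, 10 were measured in the sorts (8 higher, median 0.12) and 12 in the deletion (7 higher, median 0.02). In the sorts fitted alone 3 of the 10 receptors passed as higher, beside 6.55% of all genes, namely Fgfr4 (mean log2 ratio 0.81, limma adjusted p = 0.299 in the joint fit and 0.0017 fitted alone), Igf1r and Epha4, named after their values were seen. Erbb3, a partner of EGFR, had log2 ratios, deleted over control, of 1.17 and 1.14 on day 3 and of -0.28 and -0.35 on day 5. Erbb2 followed the same pattern with day means of 0.41 and -0.07. Epha2 had day means of 0.77 and -0.02 and Epha4 of -0.32 and 0.80. These 2 Eph receptors thus had unlike day patterns, and the variant 2 probe of Egfr had the sign pattern of Erbb3 and Erbb2.

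Among 15 ligands, 3 were measured in the sorts and 10 in the deletion, the deletion medians being -0.08 for day 3 and -0.16 for day 5. Egf itself was lower on all 4 deletion arrays, at -0.45 ± 0.09 (SD, n = 2), and Hbegf higher, at 0.52 ± 0.28. Areg had day means of -0.46 and 0.71, while Ereg averaged -0.11 ± 0.14 and Tgfa 0.11 ± 0.05. None of these 5 passed the joint limma test, where their adjusted p values in the deletion lay between 0.42 and 0.893. Of 22 adaptors and kinases of the cascade, 20 were measured in the deletion, 18 of them higher on average, but with a median of 0.09 and 2 higher on all 4 arrays. Map2k1, the gene of the kinase MEK1, was 0.32 ± 0.07 (SD, n = 2), and the ERK gene Mapk3 had day means of 0.14 and -0.09. In the sorts 15 were measured, with a median of -0.04, and Map2k1 averaged -0.14 and Mapk3 -0.20.

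The genes with the most similar ratios over the 4 RNA pairs were sought for the 2 members with the largest ratios, by Euclidean distance among 9024 other named genes measured in both comparisons. For Dusp4 they were Mycbpap (distance 0.61), Pcdh8 (0.71) and Fbp1 (0.76). For Phlda1 they were Utrn (0.22), Ccn1 (0.25) and Tns3 (0.25). Pcdh8, a protocadherin, had log2 ratios of -1.04 on day 3 and -1.72 on day 5, deleted over control, and of 0.55 and 0.66 in the sorts. Ccn1, a secreted matrix protein, had -0.04 and -0.18 in the deletion and 0.85 and 0.88 in the sorts. With 4 values per gene, such likeness is a description.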

How the data were processed

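The 8 arrays were two-colour Agilent arrays with probes for the whole mouse genome. RNA was extracted with Trizol and amplified linearly for labelling, per the labels' protocols. Scans were read with Feature Extraction 9.5.3.1 and probe positions refer to mouse build mm8, per the file headers. The deposited scanner files hold spot intensity values on a linear scale (mean foreground, median local background), the scanner's background-subtracted and dye-normalized signals, and, per the file headers, Cy5 over Cy3 as a log10 ratio. In the deposited series matrix the values are log2 ratios, already turned so that GFPhi or deleted RNA is on top (correlation with the turned scanner ratio 0.972 to 0.999; column medians -0.0248 to 0.0306); whether its columns were centred is unknown. Annotation came from a day 3 file by feature number.

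The background was corrected with normexp (offset 50) in limma 3.58.1 (R 4.3.3), followed by loess within each array with control spots at weight 0; outlier spots were left out. A first normexp fit over all spots failed on 3 arrays. There, 7 to 38 spots had a local background above their signal by more than 50, up to 65164, and the lowest corrected signals (first percentile) were 166 to 694, against 54 to 66 on the other 5 arrays. Spots that the scanner marked for a non-uniform background (7 to 129 per array) were therefore kept out of the background fit, which brought those signals to 54 to 62. This change was chosen after the members' ratios had been seen, and the values without it are given among the alternatives.

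Ratios were turned by the labelled dyes, spots of a probe averaged, the brightest probe taken for a gene, and the 2 dye-swapped arrays of a pair averaged. One lmFit and eBayes model held all 4 pairs, 1 coefficient per comparison (prior SD 0.175 with 2.26 degrees of freedom), and p values, two-sided, were adjusted by Benjamini-Hochberg with a threshold of 0.05. The test took genes with a probe well above background in all arrays of 1 RNA or both: 10419 genes in the sorts, 15851 in the deletion, 10272 in both. The test was tried on simulated data first. Each pair lies on its own slide, so pair and slide cannot be told apart. The p values of the joint fit measure the pooled spread between the 2 sorts and between the 2 deletion days, so they hold the day difference. The median SD between pairs was 0.0899 in the sorts and 0.203 in the deletion, where it includes the day. The number of RNA pairs, 2 per comparison, limits the precision, since the dye-swapped arrays of a pair add no replicate.

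The members, the other lists and the genes named were chosen with earlier results of these data known. Some genes of the cascade list, counted with it, are not reported here by name. Names follow RefSeq's gene table where an accession matched (23374 probes); promoters are RefSeq's on GRCm38.p6, found for 6 of 10 members. Alternatives were the scanner's signals, no background subtraction, the series matrix, the mean over probes, no signal filter, leaving out each pair, fitting each comparison alone and a random block for the pair; 2 more were added after the data were seen.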

Additional observations from a re-analysis of the deposited data

Results flagged for a closer look

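Of 59 gene and comparison values examined, 2 had 1 array apart from the other 3. The limit used flags about 1 in 20 groups of independent values by chance; these 4 arrays are dye swaps of 2 RNA pairs, so that rate need not hold here. Dusp1 in the sorts had -0.43 on 1 array of sort 1, against 0.01, 0.01 and 0.05 on the others. Ascl2 in the deletion had -1.73 on 1 day 5 array, against -1.30 to -1.36 on the others.

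The day 5 and day 3 ratios differed for 18 of 33 named genes, in the limma fit with a coefficient per day or by opposite signs on the arrays of the 2 days. Among the ERK feedback genes, day 5 minus day 3 was -0.59 for Dusp4, -0.53 for Spry2 and 0.72 for Etv4. Among the receptors it was -0.49 for Erbb2, -1.47 for Erbb3, -0.79 for Epha2 and 1.12 for Epha4, and for the ligand Areg it was 1.17. In the cascade it was -0.23 for Mapk3. Among the other brakes it was -1.16 for Dusp1, 0.44 for Spred1, -1.32 for Errfi1, 0.71 for Lrig1 and -0.89 for Il17rd. Among the genes listed as induced it was -0.28 for Ets2, -0.61 for Egr1, 1.33 for Myc and 2.05 for Ccnd1. Mapk3, Spred1 and Ets2 had opposite signs on the 2 days without passing that fit. Opposite signs alone were common, in 28.5% of all tested genes, the fit called 30.3%, and 42% met one or the other. With the scanner's processed signals the same fit called 0 genes.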

How the results depend on the processing

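Across 405 values under the alternatives, 347 stayed within 1 SD between pairs, or for a count within 1.5 times, and none changed sign with a call. Of 181 member means, 171 kept their sign. The others were Egfr, Etv4, Spry1 and Spry2, with main values between -0.20 and 0.10. Many of these means could not change, so both tallies overstate the stability. Fitting each comparison alone, the random block, the choice of spread prior and no signal filter leave each member mean as it was. Leaving out a pair leaves the means of the other comparison as they were. Dusp4 in the deletion and Phlda1 in the sorts kept their direction throughout.

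The alternative added after the data were seen, in which the background fit kept the debris spots, gave 56 genes with 1 sign and 1.5-fold in the sorts, against 175; Phlda1 in the sorts was 0.82 and Dusp4 in the deletion -1.48. Estimating the spread prior over all names, also added then, gave 1 gene in the deletion, not a member, and 0 in the sorts. The scanner's signals gave 419 genes with 1 sign and 1.5-fold in the sorts and 294 in the deletion (138 in the main setting), and 0 genes for the day difference, against 4798; the series matrix gave 1898. Without background subtraction, 1 member had 1 sign on all sort arrays. With the scanner's signals 2 members had, Phlda1 and Spry1, in place of Phlda1 and Dusp6 in the main setting.

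In the main setting the sorts tested 10419 genes, among them 7 members, 10 receptors, 3 ligands, 15 cascade genes, 13 brakes and 16 induced genes. The deletion tested 15851 genes, among them 7 members, 12 receptors, 10 ligands, 20 cascade genes, 23 brakes and 21 induced genes. Nothing is read from the counts of members or pathway genes here or below. Fitted alone, the sorts gave 1343 genes (12.9%), with 1 member and 12 other pathway genes. With the random block (correlation 0.474) the sorts gave 233 genes, with 1 member (Phlda1) and 4 other pathway genes, and the deletion 337, with 1 member (Dusp4) and 3 others.

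Leaving out a pair, the joint sort count lay between 0 and 1878, its members between 0 and 1 and other pathway genes between 0 and 15; the deletion count lay between 0 and 6044 (2053 without day 3), its members between 0 and 2 and other pathway genes between 0 and 45 (13 without day 3). The upper ends come from leaving out day 3 or day 5, since the difference between the days then leaves the shared spread; the lone day is assumed to vary like the sorts. Genes with 1 sign and 1.5-fold lay between 175 and 316 in the sorts (287 without sort 2) and 138 and 2096 in the deletion (950 without day 3), and members with 1 sign between 2 and 4 in the sorts and 3 and 6 in the deletion. Without day 3, Dusp4 and Dusp6 passed in the deletion; without day 5, Dusp4 and Etv4. A slide block equals the pair block and was not run apart. No paired analysis was possible because each value is already a ratio within an array and the comparisons share no replicates. The causes of these shifts were not tested beyond this.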
